A study of Homo sapiens with 12 samples.

Results

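CDKN1A, 5 further genes of the p53 response and 4 further inhibitors of cyclin-dependent kinases were followed in U937 cells that expressed PML-RARA. The genes were CDKN1A, the other inhibitor genes CDKN1B, CDKN1C, CDKN2C and CDKN2D, and the p53 target genes MDM2, GADD45A, FAS, ZMAT3 and TP53INP1. They were taken by symbol from probe sets that the platform annotation ties to exactly 1 gene, and each gene is represented by the probe set whose mean log2 value over all arrays was highest. Of the 10 named genes, 9 had such a probe set, out of 19775 genes in all, with 33 probe sets between them. CDKN2C had none and is not analysed here. The mean signal of 7 of the 9 passed the filter used for testing, which 13959 genes passed, and CDKN2D and TP53INP1 lay below it. CDKN1A was included because its lower signal in PML-RARA cells was already known from these arrays. Its differences between the fusions and GFP are therefore given as a description, and no conclusion is drawn from a test of them.

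U937 is a monocyte-like human line, derived from a histiocytic lymphoma, and is known to lack functional p53. The cells were electroporated with pEGFP-PRWT, pEGFP-PR2VR or pEGFP, and GFP-positive cells were sorted 9 h or 6 h later, which gives 6 groups of 2 arrays. The fusions carried a GFP tag. PRWT is wild-type PML-RARA, the fusion protein of acute promyelocytic leukemia. PR2VR was read as the protease-resistant variant that the series title names, although its labels call the insert wild type as well, and GFP alone was the control. The titles count hours from infection for both fusions and from transfection for GFP, so a difference in handling cannot be told apart from the difference between fusion and GFP cells. Expression was transient and driven by a plasmid, and whether the 2 arrays of a group stem from separate transfections is not stated. The p-values therefore cover no more than the spread between these arrays, part or all of which may be technical.

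The proteins encoded by CDKN1A (p21), CDKN1B (p27) and CDKN1C (p57) form the Cip/Kip family, which binds cyclin-CDK complexes and holds cells at the start of DNA synthesis. CDKN2C (p18) and CDKN2D (p19) belong to the INK4 family, which blocks CDK4 and CDK6. When DNA is damaged, p53 switches on CDKN1A to stop the cycle, GADD45A to aid repair and arrest, FAS to sensitise cells to death signals, ZMAT3, which encodes an RNA-binding protein, TP53INP1, which promotes p53 activity, and MDM2, whose product sends p53 to degradation. In myeloid cells CDKN1A is also induced without p53, and it is known as a gene that vitamin D3 and retinoids raise when U937 cells differentiate.

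The arrays had median signals between 238.6 and 436.0 at a common trimmed mean of 1500.2. The 3 arrays of 9 h number 2 stood apart, with medians of 387.8 to 436.0 against 238.6 to 292.1 on the other 9, and with a 3'-to-5' signal ratio of the GAPDH control of 2.21 to 2.75 against 3.82 to 12.9. The ratio of the actin control was 7.79 to 10.7 against 12.5 to 58.2. Signal thus leaned more to the 3' end on the other 9 arrays. RARA, which reports the transfected fusion, read 11970.8 to 58985.0 in PRWT cells and 9281.2 to 41097.2 in PR2VR cells, against 48.2 to 309.2 in GFP cells. Of 10 measured monocytic markers 8 passed the filter, with LYZ, ITGAM and CSF1R among them, while CD14 and SPI1 lay below it. The summed signal of the 10 markers overlapped between constructs, at 6747.3 to 28585.6 in PRWT, 8429.8 to 21590.9 in PR2VR and 7579.1 to 24298.8 in GFP cells. All 4 measured B cell markers passed too, and their sum was 4310.3 to 11491.8 in PRWT, 4864.3 to 6879.8 in PR2VR and 3662.0 to 17695.6 in GFP cells. So did 2 of 5 T cell, 2 of 4 erythroid and 3 of 6 epithelial and fibroblast markers. Of all 19775 genes 13959 passed, so passing the filter is not read as a sign of cell type. In the fitted difference between the fusions and GFP, 6 of the 8 tested monocytic markers were below 0 and 2 above, with a median of -0.32 on the log2 scale beside -0.02 over all genes tested, and 0 passed. All 4 B cell markers were below 0 there, with a median of -0.18, and 0 passed. Arrays that share an hour and a replicate number are called a set below (4 sets of 3), since their deviations moved together.

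CDKN1A, which encodes the CDK inhibitor p21, was lower in all 8 PML-RARA samples than in any GFP sample. PRWT cells had signals of 6226.2 and 4624.4 at 9 h and of 5656.0 and 4617.3 at 6 h. PR2VR cells had 6470.0 and 5279.1 at 9 h and 5947.1 and 5331.9 at 6 h. GFP cells had 14677.9 and 13616.7 at 9 h and 13014.8 and 10439.3 at 6 h. The highest fusion value, from PR2VR cells at 9 h, was thus well under the lowest GFP value, from 6 h, and the groups did not overlap. How many of the 13959 genes tested separate in this way was not counted. The gene was chosen for this contrast, so the separation is not read as rare. Mean signal was 5519 ± 688 (SD, n = 8) with either fusion, against 12937 ± 1802 (SD, n = 4) with GFP.

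**Figure D1:**
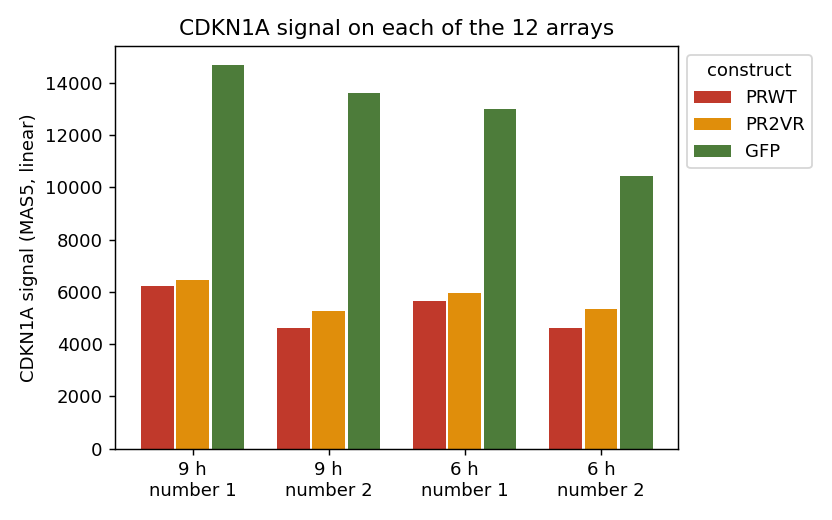
CDKN1A signal (MAS5, linear axis from 0) on each of the 12 arrays, grouped by hour and replicate number, with 1 bar per array for PRWT, PR2VR and GFP. In every set both fusion bars reach at most 51.1% of the GFP bar, and the PR2VR bar stands slightly above the PRWT bar.

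Against the GFP array of its own set, CDKN1A signal in fusion cells lay between 34.0% and 51.1%. The lowest share came from PRWT cells of 9 h number 2 and the highest from PR2VR cells of 6 h number 2. On the log2 scale, computed as log2(signal + 62.5), the difference between both fusions and GFP was -1.22 ± 0.22 (SE). It was -1.28 ± 0.26 for PRWT and -1.15 ± 0.26 for PR2VR, both set against the same 4 GFP arrays. By hour it was -1.33 ± 0.31 at 9 h and -1.11 ± 0.31 at 6 h, and these differed by -0.22 ± 0.45, which did not pass (95% interval -1.18 to 0.75, adjusted p = 1.00). Without the arrays of 9 h number 2 the fusion difference was -1.16 ± 0.32. Of the monocytic markers in the same comparison, picked after their values were seen, CD86 was at -0.75 ± 0.33, ITGAM at -0.61 ± 0.29 and CSF1R, the receptor gene of M-CSF, at -0.48 ± 0.27, against FCGR1A at 0.42 ± 0.49 and CD4 at 0.22 ± 0.38 (SE). The mean of the fusion arrays of a set was below its GFP array in 4 of 4 sets for CSF1R and in 3 of 4 for CD86 and ITGAM. The part of the monocytic and B cell markers in the CDKN1A difference was not tested. In a bulk measurement of sorted cells, fewer cells with the transcript and less transcript per cell cannot be told apart.

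CDKN1A is left out of the counts in this paragraph, because it was chosen with the contrast of fusion and GFP cells known. Counts of 7 genes further on include it. Of the other 6 genes tested, limma called 0 in the comparison of both fusions with GFP at an adjusted p under 0.05, where 0.00716% of all genes tested passed (1 of 13959, RARA). With the set as a block it called 0 of the 6, where 0.315% of all genes passed (44 genes). For PRWT minus GFP 0 of the 6 passed, with 0.00716% of all genes passing in either fit. For PR2VR minus GFP 0 of the 6 passed, with 0.00716% of all genes passing without the block and 0.294% with it (41 genes). At an unadjusted p under 0.05, the fits without the block held 439 genes for both fusions, 288 for PRWT and 551 for PR2VR, and 0 of the 6 in each.

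The sequence before the CDKN1A start is shown with that of CDKN1B, a gene of the same family, because the first carried the difference between fusion and GFP cells and the second overlapped between them. Each window holds the 250 bases before a transcript start annotated by RefSeq on GRCh38.p14, on the plus strand and written 5′ to 3′. Capitals mark the GC box GGGCGG, read on either strand as GGGCGG or CCGCCC, which Sp1-family factors are known to bind. They also mark the retinoid half-sites AGGTCA and AGTTCA and their reverse complements, of which neither window holds any. The CDKN1A window is chr6:36678464-36678713 and the CDKN1B window is chr12:12717118-12717367.
CDKN1A: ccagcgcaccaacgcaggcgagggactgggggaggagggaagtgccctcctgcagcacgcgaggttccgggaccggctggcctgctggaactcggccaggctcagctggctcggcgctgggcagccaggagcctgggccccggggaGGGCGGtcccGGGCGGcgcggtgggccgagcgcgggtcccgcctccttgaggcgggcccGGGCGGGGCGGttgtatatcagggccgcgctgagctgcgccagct
CDKN1B: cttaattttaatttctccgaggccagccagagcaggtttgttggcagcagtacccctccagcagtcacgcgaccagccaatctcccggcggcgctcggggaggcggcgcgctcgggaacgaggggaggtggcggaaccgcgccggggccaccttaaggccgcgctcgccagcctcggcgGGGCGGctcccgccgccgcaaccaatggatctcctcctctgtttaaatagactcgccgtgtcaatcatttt
The CDKN1A window holds 4 GC boxes, of which the last 2 overlap, and the CDKN1B window holds 1. A GC box occurs in 42.6% and a retinoid half-site in 19.7% of the 35116 windows in the table of all genes. These matches are letters in a window and were not tested for binding. Sequence further upstream was not searched, so the absence of retinoid half-sites holds for these 250 bases only.

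CDKN1B, the gene of p27, did not differ between fusion and GFP cells beyond its spread. PRWT cells had signals of 4181.5 and 12792.9 at 9 h and of 10756.8 and 3934.3 at 6 h. PR2VR cells had 9529.0 and 11226.3 at 9 h and 6565.3 and 6769.6 at 6 h. GFP cells had 5997.9 and 10443.1 at 9 h and 4978.7 and 4592.8 at 6 h. The groups overlapped, all 3 arrays of 9 h number 2 were at 10443.1 or more and the 2 PRWT arrays of each hour lay far apart. All 4 PR2VR arrays were above the GFP array of their set, as were 2 of the 4 PRWT arrays, and the fusion difference was 0.30 ± 0.34 (SE, adjusted p = 1.00, and 0.821 with the block).

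CDKN1C, the gene of p57, was measured near the lower end of the signals tested. Signals were 402.6 and 221.1 at 9 h and 270.0 and 45.2 at 6 h in PRWT cells. They were 356.4 and 129.7 at 9 h and 283.0 and 343.8 at 6 h in PR2VR cells. In GFP cells they were 355.7 and 217.1 at 9 h and 244.0 and 289.9 at 6 h. The groups overlapped, and 1 PRWT array of 6 h read 45.2 while the rest of its set read 343.8 and 289.9. The fusion difference was -0.20 ± 0.42 (SE, adjusted p = 1.00), and without that array it was 0.0059. The other 4 probe sets of CDKN1C lay below the filter.

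CDKN2D, which encodes the INK4 protein p19, was below the filter, with signals from 33.4 to 425.6. PRWT cells had 228.7 and 425.6 at 9 h and 33.4 and 137.6 at 6 h. PR2VR cells were the most even, at 154.2 and 130.8 at 9 h and 121.5 and 152.2 at 6 h. GFP cells had 304.8 and 235.5 at 9 h and 59.0 and 45.9 at 6 h. The constructs overlapped, and in PRWT and GFP cells both 9 h arrays were above both 6 h arrays. With no filter on signal, CDKN2D differed by 0.14 ± 0.35 between fusions and GFP (adjusted p = 1.00) and by 1.00 ± 0.33 between 9 h and 6 h (adjusted p = 0.274, in a fit with no block).

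**Figure D2:**
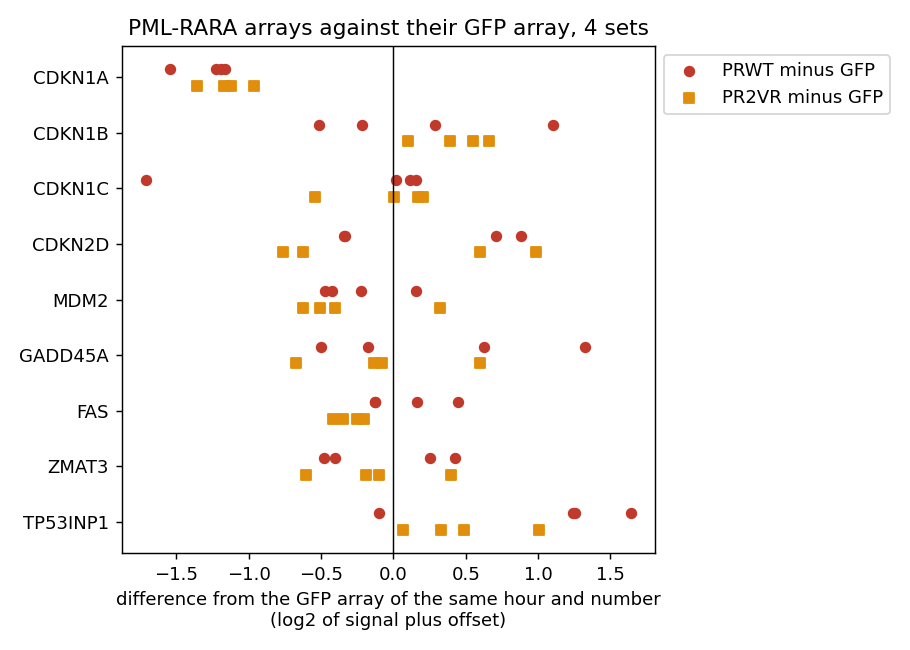
Difference of each PRWT (circle) and PR2VR (square) array from the GFP array of its set, on the log2(signal + 62.5) scale, for 9 genes over 4 sets. All 8 points of CDKN1A lie left of 0, while the points of each other gene fall on both sides of 0, with 7 of 8 to the right for TP53INP1.

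MDM2, whose product degrades p53, had overlapping signals. PRWT cells had 1141.8 and 1899.3 at 9 h and 1097.1 and 753.5 at 6 h. PR2VR cells had 987.5 and 1668.0 at 9 h and 1069.1 and 853.7 at 6 h. GFP cells had 1553.1 and 2229.9 at 9 h and 1543.5 and 669.1 at 6 h. In 3 of the 4 sets both fusion arrays lay below the GFP array, and in 6 h number 2 both lay above it. The fusion difference was -0.27 ± 0.30 (SE, 95% interval -0.93 to 0.38, adjusted p = 1.00, and 0.780 with the block). All 6 MDM2 probe sets that passed the filter had a difference below 0, from -0.74 to -0.23, and 0 of them passed the test. Of its 10 probe sets the rest lay below the filter. In 1 of these the fusion mean was below GFP in 0 of 4 sets, and in each of the others in 2 of 4. For the probe set with the highest mean, leaving out the GFP array of 6 h number 1 brought the fusion difference to 0.012. Leaving out the GFP array of 6 h number 2 brought it to -0.55.

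FAS, the gene of the CD95 death receptor, was high in all groups. Signals were 10007.5 and 6015.8 at 9 h and 3893.7 and 4866.2 at 6 h in PRWT cells. They were 6141.6 and 4639.8 at 9 h and 3162.0 and 4170.8 at 6 h in PR2VR cells, and 7322.9 and 5352.1 at 9 h and 4250.1 and 5328.5 at 6 h in GFP cells. PR2VR cells were below GFP cells in 4 of 4 sets and PRWT cells in 2 of 4, and the signals overlapped. The fusion difference was -0.11 ± 0.25 (SE, adjusted p = 1.00, and 0.915 with the block), and over the 4 FAS probe sets past the filter it ran from -0.11 to 0.10.

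Windows of MDM2 and FAS are shown because both genes are known p53 targets whose signals overlapped between fusion and GFP cells. The MDM2 window, chr12:68808767-68809016, lies at the start that p53 is known to use in the first intron, and is 1 of 4 windows of the gene. The FAS window, chr10:88991181-88991430, is 1 of 3. Both are on the plus strand with the conventions given above, and capitals also mark matches to the p53 consensus half-site, which is given by name because it allows several letters at most positions, and which was searched on both strands.
MDM2: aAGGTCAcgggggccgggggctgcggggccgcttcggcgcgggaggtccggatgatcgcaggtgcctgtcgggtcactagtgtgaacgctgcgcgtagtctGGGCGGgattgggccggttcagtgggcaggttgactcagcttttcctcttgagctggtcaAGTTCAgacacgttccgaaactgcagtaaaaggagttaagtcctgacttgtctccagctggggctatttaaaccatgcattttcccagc
FAS: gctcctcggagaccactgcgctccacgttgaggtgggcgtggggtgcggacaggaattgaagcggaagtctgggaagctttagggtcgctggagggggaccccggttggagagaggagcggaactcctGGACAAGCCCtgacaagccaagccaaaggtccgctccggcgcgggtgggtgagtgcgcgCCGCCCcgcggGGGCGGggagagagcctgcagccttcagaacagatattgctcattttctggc
The MDM2 window holds 1 GC box, 2 retinoid half-sites and 0 exact matches to the p53 half-site. The FAS window holds 2 GC boxes and 1 exact p53 half-site match. Only matches at every position were counted, so a p53 site with a mismatched letter stays unmarked. The count of 0 therefore does not show that the MDM2 window lacks p53 sites. None of the marks was tested for binding. The windows differ within a gene: the other 2 FAS windows hold 0 p53 half-sites, and the other 3 MDM2 windows, in order of position, hold 0, 0 and 1 retinoid half-sites and 0 p53 half-sites each. An exact p53 half-site match occurs in 5.57% of all windows.

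GADD45A, a DNA damage and stress gene, varied within every construct. PRWT cells had signals of 2412.4 and 2025.7 at 9 h and of 3195.1 and 2555.3 at 6 h. PR2VR cells had 1394.9 and 2739.3 at 9 h and 1901.5 and 1783.4 at 6 h. GFP cells had 1537.9 and 2895.2 at 9 h and 1234.5 and 2887.2 at 6 h. GFP values formed a low and a high array at each hour. At 9 h the fusion values ran from 1394.9, under the low GFP array, to 2739.3, under the high one. At 6 h they ran from 1783.4, above the low GFP array, to 3195.1, above the high one. The fusion difference was 0.12 ± 0.31 (SE, adjusted p = 1.00, and 0.938 with the block), and it was -0.17 without the GFP array of 6 h number 1 and 0.42 without that of 6 h number 2.

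ZMAT3, whose protein binds RNA, differed between its probe sets. The probe set with the highest mean read 1252.4 and 362.2 at 9 h and 861.1 and 607.0 at 6 h in PRWT cells. It read 579.1 and 455.9 at 9 h and 959.6 and 763.4 at 6 h in PR2VR cells, and 914.3 and 529.3 at 9 h and 711.5 and 821.0 at 6 h in GFP cells. These values overlapped, with a fusion difference of -0.09 ± 0.33 (SE, adjusted p = 1.00, and 0.956 with the block). Over the 4 ZMAT3 probe sets past the filter the difference ran from -0.09 to 1.12, and 0 of them passed. The probe set at 1.12 ± 0.41 was above its GFP array on all 8 fusion arrays (unadjusted p = 0.0168, adjusted p = 1.00). Its GFP signals were 47.8 and 264.6 at 9 h and 46.8 and 52.4 at 6 h, against 127.7 to 356.7 in fusion cells. All but the 264.6 of 9 h number 2 lay under the offset of 62.5. The filter takes the mean over all arrays, which the fusion arrays raised here. No conclusion is therefore drawn from its count or its unadjusted p.

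TP53INP1, whose protein promotes p53 activity, lay below the filter, and its signals were higher than in the GFP array of the same set on 7 of 8 fusion arrays. PRWT cells had 379.9 and 42.9 at 9 h and 443.4 and 176.0 at 6 h. PR2VR cells had 222.5 and 55.7 at 9 h and 202.9 and 79.4 at 6 h. GFP cells had 79.4 and 50.6 at 9 h and 149.2 and 38.4 at 6 h. The constructs overlapped, and all 3 arrays of 9 h number 2 were low, at 42.9 to 55.7. With no filter on signal the fusion difference was 0.74 ± 0.47 (SE, adjusted p = 1.00). A second probe set of the gene was below its GFP array on 7 of 8 fusion arrays, so the probe sets disagreed in direction.

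**Figure D3:**
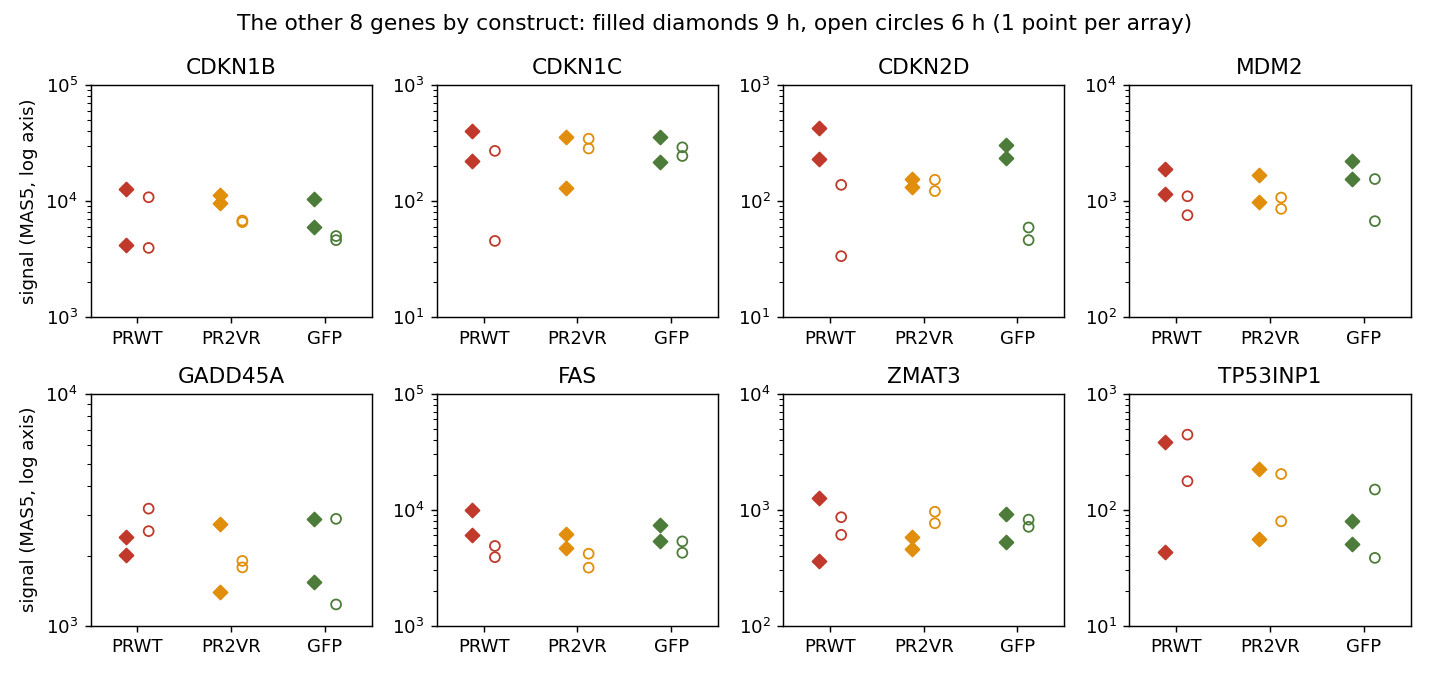
Signal (MAS5, log axis) of the 8 genes other than CDKN1A, with 1 point per array, filled diamonds for 9 h and open circles for 6 h, in PRWT, PR2VR and GFP cells. In each panel the points of the constructs overlap.

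Among the 6 genes tested apart from CDKN1A, the fusion difference was above 0 for 2, GADD45A and CDKN1B, and below 0 for 4. Of all 13959 genes tested, 52.4% were below 0, with a median of -0.02. The adjusted p of these 6 genes was 1.00 in the fit without the block and 0.780 to 0.956 with it. A test of whether the difference between fusions and GFP itself differed between 9 h and 6 h passed for 0 of the 7 genes, CDKN1A included. There 0.0% of all genes passed, and 106 genes had an unadjusted p under 0.05. The block gave 0.0% there too, with 434 genes at an unadjusted p under 0.05.

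PR2VR was set against PRWT to see whether the 2 forms of the fusion left these genes at different levels. None of the 7 passed in limma, where 0.0% of all genes passed and 216 had an unadjusted p under 0.05. With the block 0.0% passed, with 957 at an unadjusted p under 0.05. CDKN1A was slightly higher with PR2VR in 4 of 4 sets, by 0.05 and 0.19 at 9 h and by 0.07 and 0.21 at 6 h on the log2 scale. The mean difference was 0.13 ± 0.26 (SE, 95% interval -0.43 to 0.69, adjusted p = 1.00). RARA signal was lower with PR2VR in the same 4 sets, by -0.15, -0.41, -0.68 and -0.36 in that order of sets, and its part in the CDKN1A difference was not tested.

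FAS was lower with PR2VR than with PRWT in 4 of 4 sets, with a difference of -0.40 ± 0.29 (SE, 95% interval -1.02 to 0.22, adjusted p = 1.00, and 0.734 with the block). An exact two-sided sign-flip test over the 4 sets gave p = 0.125 for CDKN1A and for FAS, which is the smallest that 4 sets allow, so 0 of the 9 genes tested in this way could pass. All 4 FAS probe sets past the filter had a difference below 0, from -0.78 to -0.19, but not in every set. PR2VR was above PRWT in 2 of 4 sets for the probe set at -0.19 and in 1 of 4 for that at -0.78. The probe set at -0.78 held a difference of -2.16 in 6 h number 1, where PR2VR cells read 72.6. GADD45A differed by -0.39 ± 0.35, CDKN1C by 0.31 ± 0.48, CDKN1B by 0.26 ± 0.40, ZMAT3 by -0.07 ± 0.39 and MDM2 by -0.06 ± 0.35 (SE, all with an adjusted p of 1.00). The 95% intervals of these 5 reached from -1.16 for GADD45A to 1.36 for CDKN1C, and the 4 arrays per construct limit how small a difference could be detected.

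Between 9 h and 6 h none of the 7 passed either, where 0.0788% of all genes did (11 genes, and 2105 with an unadjusted p under 0.05). With the set as a random block 0.0% of all genes passed, with 766 at an unadjusted p under 0.05. The fit without the block treats the 3 arrays of a set as independent. The median over all genes was 0.13, so the values that follow are to be read relative to it. MDM2 was at 0.63 ± 0.29 (SE, unadjusted p = 0.0460, adjusted p = 0.327), or ± 0.37 with the random block (unadjusted p = 0.108, adjusted p = 0.857), with a mean signal of 1580 ± 464 (SD, n = 6) at 9 h and 998 ± 317 (SD, n = 6) at 6 h. FAS was at 0.59 ± 0.23 (SE, unadjusted p = 0.0261, adjusted p = 0.284), or ± 0.31 with the random block (unadjusted p = 0.0738, adjusted p = 0.857), with 6580 ± 1902 (SD, n = 6) at 9 h and 4279 ± 756 (SD, n = 6) at 6 h. All 4 FAS probe sets past the filter were above 0, from 0.32 to 0.87, whereas the 6 of MDM2 ran from -0.49 to 0.63. Signals of both genes overlapped between hours.

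CDKN1B was above 0 by 0.51 ± 0.33 and ZMAT3 below 0 by -0.29 ± 0.31, with adjusted p of 0.464 and 0.674. CDKN1A differed by 0.13 ± 0.21, CDKN1C by 0.20 ± 0.40 and GADD45A by -0.04 ± 0.29 (SE, adjusted p = 0.780 to 0.956). Without the arrays of 9 h number 2, FAS was at 0.85 ± 0.31, MDM2 at 0.31 ± 0.37, CDKN1B at 0.07 ± 0.37 and ZMAT3 at 0.15 ± 0.33. CDKN1B at 9 h thus rested on the set whose arrays stood apart, where its signal was 10443.1 to 12792.9 against 4181.5 to 9529.0 in 9 h number 1.

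The wider pathway was followed in 6 lists of genes. Among 22 other p53 target genes tested, 0 passed in either direction between the fusions and GFP, with 8 above 0 and 14 below and a median of -0.06. PMAIP1, the gene of the death-promoting protein NOXA, was at -0.44 ± 0.21, SFN, the gene of 14-3-3 sigma, at -0.60 ± 0.38, and CD82, which encodes a tetraspanin, at -0.59 ± 0.39. PPM1D, whose phosphatase restrains p53 signalling, was at 0.56 ± 0.36. Of 14 genes tested among p53 and its regulators 0 passed, with 10 above 0, 4 below and a median of 0.09. TP73, a relative of p53, was at 1.08 ± 0.41, the acetyltransferase gene EP300 at 0.57 ± 0.28, the checkpoint kinase gene CHEK2 at -0.55 ± 0.28 and MDM4, a partner of MDM2, at 0.43 ± 0.24. With the block 0 genes of these 2 lists passed as well.

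**Figure D4:**
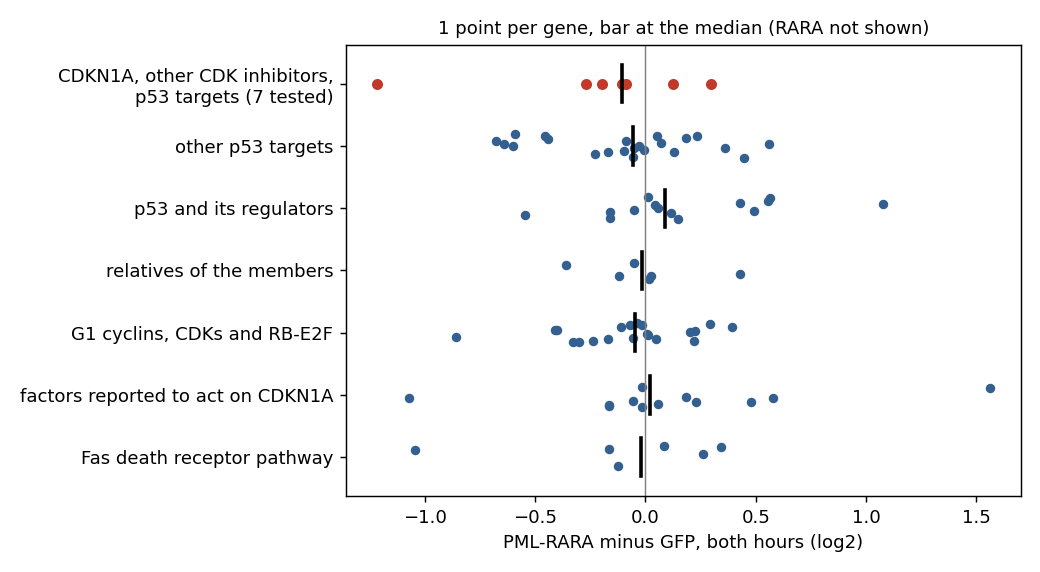
Fitted log2 difference between PML-RARA and GFP cells, averaged over both hours, with 1 point per gene and a bar at each median, for the 7 tested genes named first, CDKN1A included, and for 6 related lists. List medians lie close to 0, CDKN1A is the leftmost point at -1.22, and RARA is left out of the plot and of the bar of its list.

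Relatives of the inhibitors and of MDM2, GADD45A and TP53INP1 gave 0 of 6, with 3 on each side of 0, and MDM4 is counted here as well as among the regulators. CDKN2A, the gene of p16 and p14ARF, was at -0.36 ± 0.41, CDKN2B, the gene of p15, at -0.12 ± 0.34 and GADD45B, a stress gene, at -0.05 ± 0.30. Among 20 genes for G1 cyclins, their kinases and the RB-E2F pathway 0 passed, with 8 above 0, 12 below and a median of -0.05. CCND1, the gene of cyclin D1, was at -0.86 ± 0.39, E2F3, which encodes an activator of S-phase genes, at -0.41 ± 0.33, CDK2 at -0.40 ± 0.33 and CCNE2, the gene of cyclin E2, at -0.33 ± 0.32. Of 6 genes of the Fas death receptor pathway 0 passed, with 3 on each side of 0. CFLAR, the gene of the caspase-8 inhibitor FLIP, was at -1.05 ± 0.35 (unadjusted p = 0.0110, adjusted p = 1.00, and 0.227 with the block). The adaptor gene FADD was at 0.26 ± 0.27, and the caspase genes CASP8 and CASP10 were at 0.34 ± 0.36 and -0.16 ± 0.27.

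Factors reported to act on the CDKN1A promoter were the only one of the 6 lists with genes that passed in this comparison. The lists were chosen with earlier results of these data known, so the passing genes do not set this list apart. Of 13 tested, 7 were above 0 and 6 below, and without the block RARA alone passed, the transfected gene. With the block, where 0.315% of all genes passed (44 genes), 2 rose, RARA and KLF6, and 1 fell, CEBPB. KLF6, a zinc-finger factor known to activate CDKN1A, was at 1.56 ± 0.19 with the block (adjusted p = 0.0104), against an adjusted p of 0.733 without it. CEBPB, a factor of myeloid differentiation, was at -1.07 ± 0.17 with the block (adjusted p = 0.0341), against 0.949 without it. MYC, known as a repressor of CDKN1A, was at 0.58 ± 0.32 (adjusted p = 1.00, and 0.313 with the block).

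Between 9 h and 6 h 0 genes of these lists passed in limma without the block, and the values below come from that fit. The largest of the differences named by rule were EGR1 at -1.21 ± 0.37, the immediate early factor gene, CHEK1 at 1.09 ± 0.26, the checkpoint kinase gene, BCL6 at -1.06 ± 0.36, which encodes a transcriptional repressor, CDKN2A at 1.04 ± 0.38 and KLF6 at -1.03 ± 0.38, with adjusted p of 0.144 for CHEK1 to 0.256 for CDKN2A and KLF6. SFN was at 0.97 ± 0.36, CD82 at 0.93 ± 0.37, CCNE2 at 0.83 ± 0.30, CASP8 at 0.76 ± 0.34 and CDK1 at 0.57 ± 0.25. USP7, the gene of a deubiquitinase that acts on MDM2 and p53, was at -0.76 ± 0.29, TP53INP2 at -0.68 ± 0.25 and FADD at 0.45 ± 0.26.

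Genes with a pattern most like that of CDKN1A were found by Pearson r over the 12 arrays after the mean of its set was taken from each array. The arrays share sets and constructs, so r is given as a description, with no p. Taking out the set mean leaves mainly the difference between constructs, for which CDKN1A was chosen. The highest were NMRAL2P at r = 0.98, a pseudogene transcript whose probe set may not be specific, CCL26 at 0.97, the gene of the chemokine eotaxin-3, GRAMD1B at 0.96, a sterol transport gene, ANKRD33B at 0.96 and TMEM144 at 0.96. CCL26 had signals of 727.5 to 1171.1 in PRWT and 777.9 to 1539.4 in PR2VR cells, against 1385.9 to 2893.5 in GFP cells. TMEM144 had 351.9 to 645.1 in PRWT and 324.7 to 558.6 in PR2VR cells, against 708.4 to 1081.0 in GFP cells, with no overlap. Without that step r over the same 12 arrays was 0.30 for NMRAL2P, 0.73 for CCL26, 0.65 for GRAMD1B, 0.70 for ANKRD33B and 0.74 for TMEM144. The lowest were RARA at -0.98, CYTIP at -0.95, which encodes a cytohesin-binding protein of leukocytes, and SLC2A3 at -0.95, the gene of the glucose transporter GLUT3, and without that step these were at -0.91, -0.60 and -0.66.

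**Figure D5:**
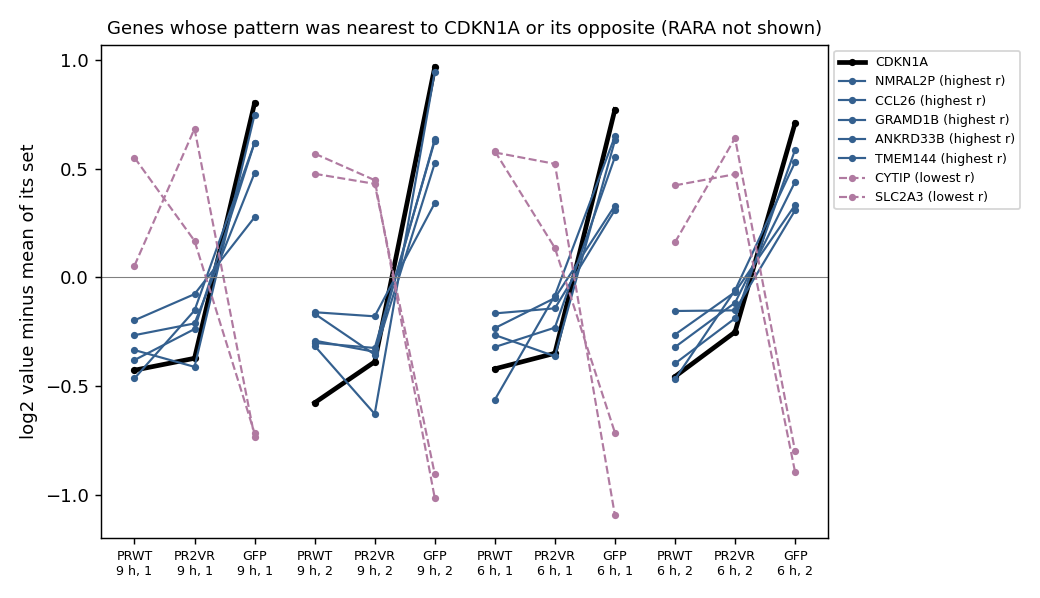
log2 value minus the mean of its set (y axis) on each array, in the order PRWT, PR2VR and GFP within the 4 sets, for CDKN1A (thick black), the 5 genes with the highest r (solid blue) and 2 of the 3 with the lowest (dashed), RARA being left out. In every set the GFP point is the highest for CDKN1A and the blue genes and the lowest for the dashed ones.

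By the same measure MDM2 was nearest to CDKN1A among the other 6 genes tested, at r = 0.65 over 12 arrays. CDKN1C was at 0.24, ZMAT3 at 0.19, FAS at 0.17, GADD45A at -0.16 and CDKN1B at -0.34.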

How the data were processed

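RNA of 12 samples was hybridised to Affymetrix arrays. The deposited intensity values are MAS5 signals, per the submitters' processing notes, with no version stated there. The authors had scaled every array to a trimmed mean of 1500.2, and no further normalization was made. The genome build of the files was not stated. The log2 scale was computed from the deposited intensity as log2(signal + 62.5), 62.5 being the 20th percentile of all signals, which understates differences of low genes. Of 54675 probe sets, 41091 had 1 gene symbol, 1801 several and 11721 none, and 62 were controls. Entrez numbers of 41037 probe sets matched RefSeq, and 0 symbols changed. Genes with a mean log2 of at least 7.85 (signal 168.9, the 40th percentile) were tested. No detection calls were used. No array repeated another: at most 0.0677% of values were equal on any 2 arrays.

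Groups were compared with limma 3.58.1 in R 4.3.3 (1 mean per group, variance trend, 6 residual degrees of freedom), with Benjamini-Hochberg adjustment over 13959 genes, and a gene passed under 0.05. Errors are standard errors unless SD is written. Fits were run on simulated data in which all genes shared the same set effects. Set effects that differ between genes were not simulated, so that run does not favour either fit. Replicate numbers, from the titles, were taken to pair arrays within an hour: deviations of same-numbered arrays correlated across genes at r = 0.56 to 0.63 at 9 h and at 0.15 to 0.36 at 6 h. The fit with this set as a block has 4 residual degrees of freedom and is given beside a result where a call differs. It cannot be used for 9 h against 6 h, where the set was a random block (correlation 0.41). The genes, lists and settings were chosen with earlier results of these data known. Named from each list were up to 4 genes with the smallest unadjusted p in fusion minus GFP, up to 2 in 9 h minus 6 h, and any that passed. The 5 highest and 3 lowest correlations with CDKN1A were also named. Alternatives were another offset, no filter, quantile normalization, no variance trend, all probe sets, blocks, and arrays or the set 9 h number 2 left out.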

Additional observations from a re-analysis of the deposited data

Results flagged for a closer look

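The difference between PR2VR and PRWT cells had opposite signs at the 2 hours for CDKN1C and CDKN2D, with every set of an hour on 1 side. For CDKN1C it was -0.56 and -0.15 at 9 h, against 0.06 and 1.92 at 6 h, a difference of -1.34 between the hour means. In the fit this was -1.34 ± 0.97 (SE, limma, adjusted p = 1.00), and the value of 1.92 came from the PRWT array with a signal of 45.2. For CDKN2D it was -1.34 and -0.43 at 9 h, against 0.10 and 0.94 at 6 h, a difference of -1.40 between the hour means. CDKN2D lies below the filter on signal, and with no filter the fit gave -1.40 ± 0.81 (SE, limma, adjusted p = 1.00). Each hour holds 2 sets.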

How the results depend on the processing

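CDKN1A stayed below GFP with both fusions under every setting run. When 1 array was left out of the fit without the block, the mean fusion difference ran from -1.30 to -1.14. It ran from -1.39 to -1.18 for PRWT and from -1.23 to -1.07 for PR2VR. With the replicate block the number of the 7 genes that passed was 1 in place of 0 for fusion minus GFP and for PR2VR minus GFP, and again 1 with a random block. The gene was CDKN1A in each case, which was chosen with this contrast known, so nothing is read from the count. When 1 array was left out of the blocked fit, between 0 and 1 genes passed for fusion, PRWT and PR2VR minus GFP. The block changed no other call among the 7 genes.

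Several small differences turned sign when 1 array was left out. For fusion minus GFP the ranges were -0.17 to 0.42 for GADD45A, -0.22 to 0.0041 for FAS, -0.40 to 0.0059 for CDKN1C, -0.29 to 0.12 for ZMAT3 and -0.55 to 0.012 for MDM2. For PR2VR minus PRWT they were -0.14 to 0.66 for CDKN1B, -0.092 to 0.72 for CDKN1C, -0.48 to 0.33 for ZMAT3 and -0.24 to 0.12 for MDM2. For 9 h minus 6 h they were -0.24 to 0.16 for GADD45A and -0.072 to 0.47 for CDKN1C. CDKN1C at 9 h against 6 h was -0.068 with quantile normalization, and ZMAT3 was 0.15 without the arrays of 9 h number 2. The cause was not tested. Precision is limited by 2 arrays per group.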
